A study of Mus musculus with 24 samples.

Results

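The genes described here are 76 members of 13 symbol families that copy and segregate DNA: Orc, Mcm, Cdc, Cdk, Ccn, Cenp, Pol, Rfc, Bub, Smc, Ncap, Aurk and Top2. They were picked by symbol from a table of STAU2 peaks, with earlier results of these data known. The counts of each gene's rows were summed. Rows called intron or intergenic were not used, and Cdc42 genes, Cenpj, Cenpe, Bub1b, Ccnb1 and Ccnd2 were left out. The 76 genes held 134 of the 13749 rows analysed and stood among 7702 genes. All 76 passed the low-count filter, which left 7651 genes to test.

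STAU2 is a protein that binds double-stranded RNA, and the libraries hold RNA pulled down with an antibody against it. The tissue was brain cortex of C57BL/6 mouse embryos at 4 stages between E11.5 and E17.5, 2 days apart, with 3 libraries a stage, and the labels name no further genotype and no treatment. The 12 count columns bear a stage and a number that fit a pulldown and its input alike. Because the rows are peaks, the columns were taken to be pulldowns, and each value below depends on that. Inputs were not analysed here, so a change in how much of an RNA was present and a change in how much STAU2 held cannot be told apart. In whole tissue, fewer cells of a type and less RNA per cell cannot be told apart either.

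Cells that are about to copy their DNA load the MCM helicase onto origins that the origin recognition complex has marked, and polymerases held by a sliding clamp then copy both strands. Cyclins and their kinases time these steps, cohesin and condensin hold and fold the copied chromosomes, and the kinetochore built on the CENP-A histone ties them to the spindle. In the embryonic cortex the dividing cells are the progenitors near the ventricle, and the neurons they produce no longer divide. Several genes that share these symbols do other work, such as the transcription kinases Cdk8, Cdk9 and Cdk12, the splicing factors Cdc5l and Cdc40, and Cdk5, a kinase of neurons. By role, 12 members were grouped under origin recognition and the helicase, 9 under DNA synthesis, and 6 as cyclins, kinases and Cdc25 phosphatases. Another 10 act in chromosome structure, 22 at the centromere and in mitosis, and 17 were placed in a group of other main roles. The group of 12 also holds the recombination factors Mcm8 and Mcm9.

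The stretches printed here show what the STAU2 libraries captured for 6 members that changed between stages. Each is the longest coding stretch in the gene's highest peak that holds at least 60 coding bases in a row, read from GENCODE transcripts on GRCm38, 5′ to 3′ in the sense of the RNA. Capitals mark the bases that RNAfold pairs in its minimum free energy structure of that stretch alone, which is a prediction. The Mcm4 stretch lies in exon 10 at chr16:15630293-15630437 on the minus strand, that of Rfc1 in exon 5 at chr5:65302976-65303100 (minus), and that of Cdc25b in exon 10 at chr2:131193239-131193412 (plus). The Smc4 stretch lies in exon 2 at chr3:69006140-69006218 (plus), that of Cenpa in exon 4 at chr5:30673293-30673424 (plus), and that of Cenpc1 in exon 9 at chr5:86035416-86035498 (minus). Between 43.2% of the bases (Rfc1) and 59.8% (Cdc25b) are paired in these predictions.
Mcm4: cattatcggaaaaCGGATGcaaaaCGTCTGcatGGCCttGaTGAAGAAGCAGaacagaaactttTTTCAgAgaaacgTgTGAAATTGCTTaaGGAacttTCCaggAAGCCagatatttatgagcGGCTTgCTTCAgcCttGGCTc
Rfc1: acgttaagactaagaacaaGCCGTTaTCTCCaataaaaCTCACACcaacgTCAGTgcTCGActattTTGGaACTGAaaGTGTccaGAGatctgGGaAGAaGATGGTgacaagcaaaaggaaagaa
Cdc25b: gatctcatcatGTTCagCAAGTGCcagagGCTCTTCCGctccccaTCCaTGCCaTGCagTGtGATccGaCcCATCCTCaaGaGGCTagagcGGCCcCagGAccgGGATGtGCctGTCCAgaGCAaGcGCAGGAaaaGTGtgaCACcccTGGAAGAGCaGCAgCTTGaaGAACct
Smc4: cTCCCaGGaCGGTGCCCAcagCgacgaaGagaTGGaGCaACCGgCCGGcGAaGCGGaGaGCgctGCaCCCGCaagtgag
Cenpa: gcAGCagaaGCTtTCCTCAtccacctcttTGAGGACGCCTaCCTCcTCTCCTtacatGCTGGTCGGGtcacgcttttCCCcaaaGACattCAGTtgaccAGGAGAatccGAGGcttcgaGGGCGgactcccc
Cenpc1: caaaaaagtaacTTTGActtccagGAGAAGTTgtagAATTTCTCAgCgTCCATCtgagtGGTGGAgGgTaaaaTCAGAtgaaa

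The table called 54.5% of the members' 134 rows 3′ UTR, 40.3% exon and 5.22% 5′ UTR, against 48.7%, 43.0% and 8.29% of the 13615 rows of other genes. These names do not always match GENCODE, in which 20 of the members' 73 rows called 3′ UTR lay mostly in coding sequence. The median row was 345 bases wide in members and in other genes. The median share of a row that lay in exons of its gene was 62.6% in members and 77.2% in other genes. A central window of 145 bases inside 1 exon could be read for 60 member rows and 7206 other rows. Its median GC content was 43.5% in members and 48.3% in other genes, and its median folding energy was −30.7 kcal/mol in members and −32.8 kcal/mol in other genes. Of the members, 42 had 1 row, and Smc1a, a core subunit of cohesin, had the most with 8.

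The number of counts in gene rows, and their composition, differed by stage. Over all 18975 regions a library held 16839444 to 17524318 counts at E11.5 and 16237020 to 17293824 at later stages. Gene rows held 1954160 to 2454846 counts in a library of E11.5 and 3365054 to 4693793 in a later one, and the members held 0.612% to 0.639% of them in E11.5 cortex, 0.575% to 0.639% in E13.5 cortex, 0.528% to 0.549% in E15.5 cortex and 0.454% to 0.481% in E17.5 cortex. The 10 highest genes took 21.1% to 24.7% of these counts at E11.5 and 8.95% to 11.95% at later stages. The TMM factor, which scales each library, was 0.813 to 0.848 at E11.5 and 1.02 to 1.14 at later stages. Levels are CPM (counts scaled by library size and that factor). A gene is called at an adjusted p under 0.05 (edgeR quasi-likelihood test, Benjamini-Hochberg over all 7651 genes). Log2 changes carry a standard error derived from the statistic of that test, so it is not a separate estimate. Scaling by the plain total instead moved the median log2 change of all genes by 0.35 at E13.5 against E11.5, by 0.30 at E17.5 against E11.5 and by −0.11 at E17.5 against E15.5. Per kilobase of peak, Cdk4 had the highest mean level at both ends of the interval, 554 CPM at E17.5 and 1258 CPM at E11.5. Cenpm and Ccnd3 came next at E11.5, with 1194 and 977 CPM, but stood at 113 and 120.2 CPM at E17.5, below Cenpb with 408 CPM. Mcm3ap had the lowest mean over all libraries, 7.35 CPM.

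Across the whole interval the bound RNA of these families was lower at the end than at the start. Summed over the 76 members, libraries held 7213 to 7859 CPM in E11.5 cortex, 5462 to 5949 in E13.5 cortex, 4816 to 4893 in E15.5 cortex and 4398 to 4694 in E17.5 cortex, and the ranges of neighbouring stages did not overlap. These sums include an Ncapd2 peak that overlaps other genes on the same strand, with a mean of 309.8 CPM at E17.5 and 20.5 at E11.5. As shares of the plain gene total, given above, the ranges of E13.5 and E11.5 do overlap. At E17.5 against E11.5, 41 members fell and 9 rose. In the same comparison 28.8% of all genes fell, 29.8% rose and 58.6% were called. The members' median log2 change was −0.95, while that of all genes was 0.04. With scaling by the plain total the members' median was −0.65 and that of all genes 0.34, with 33 members called lower and 14 higher. The stage mean was highest at E11.5 in 43 members (56.6%, against 36.2% of all genes) and lowest at E17.5 in 46 (60.5%, against 38.1%). Of the 50 calls, 38 held without each of the 12 libraries in turn. The same was so for 8 of the 18 calls at E13.5 against E11.5, 6 of the 20 at E17.5 against E15.5 and 0 of the 1 at E15.5 against E13.5.

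**Figure D1:**
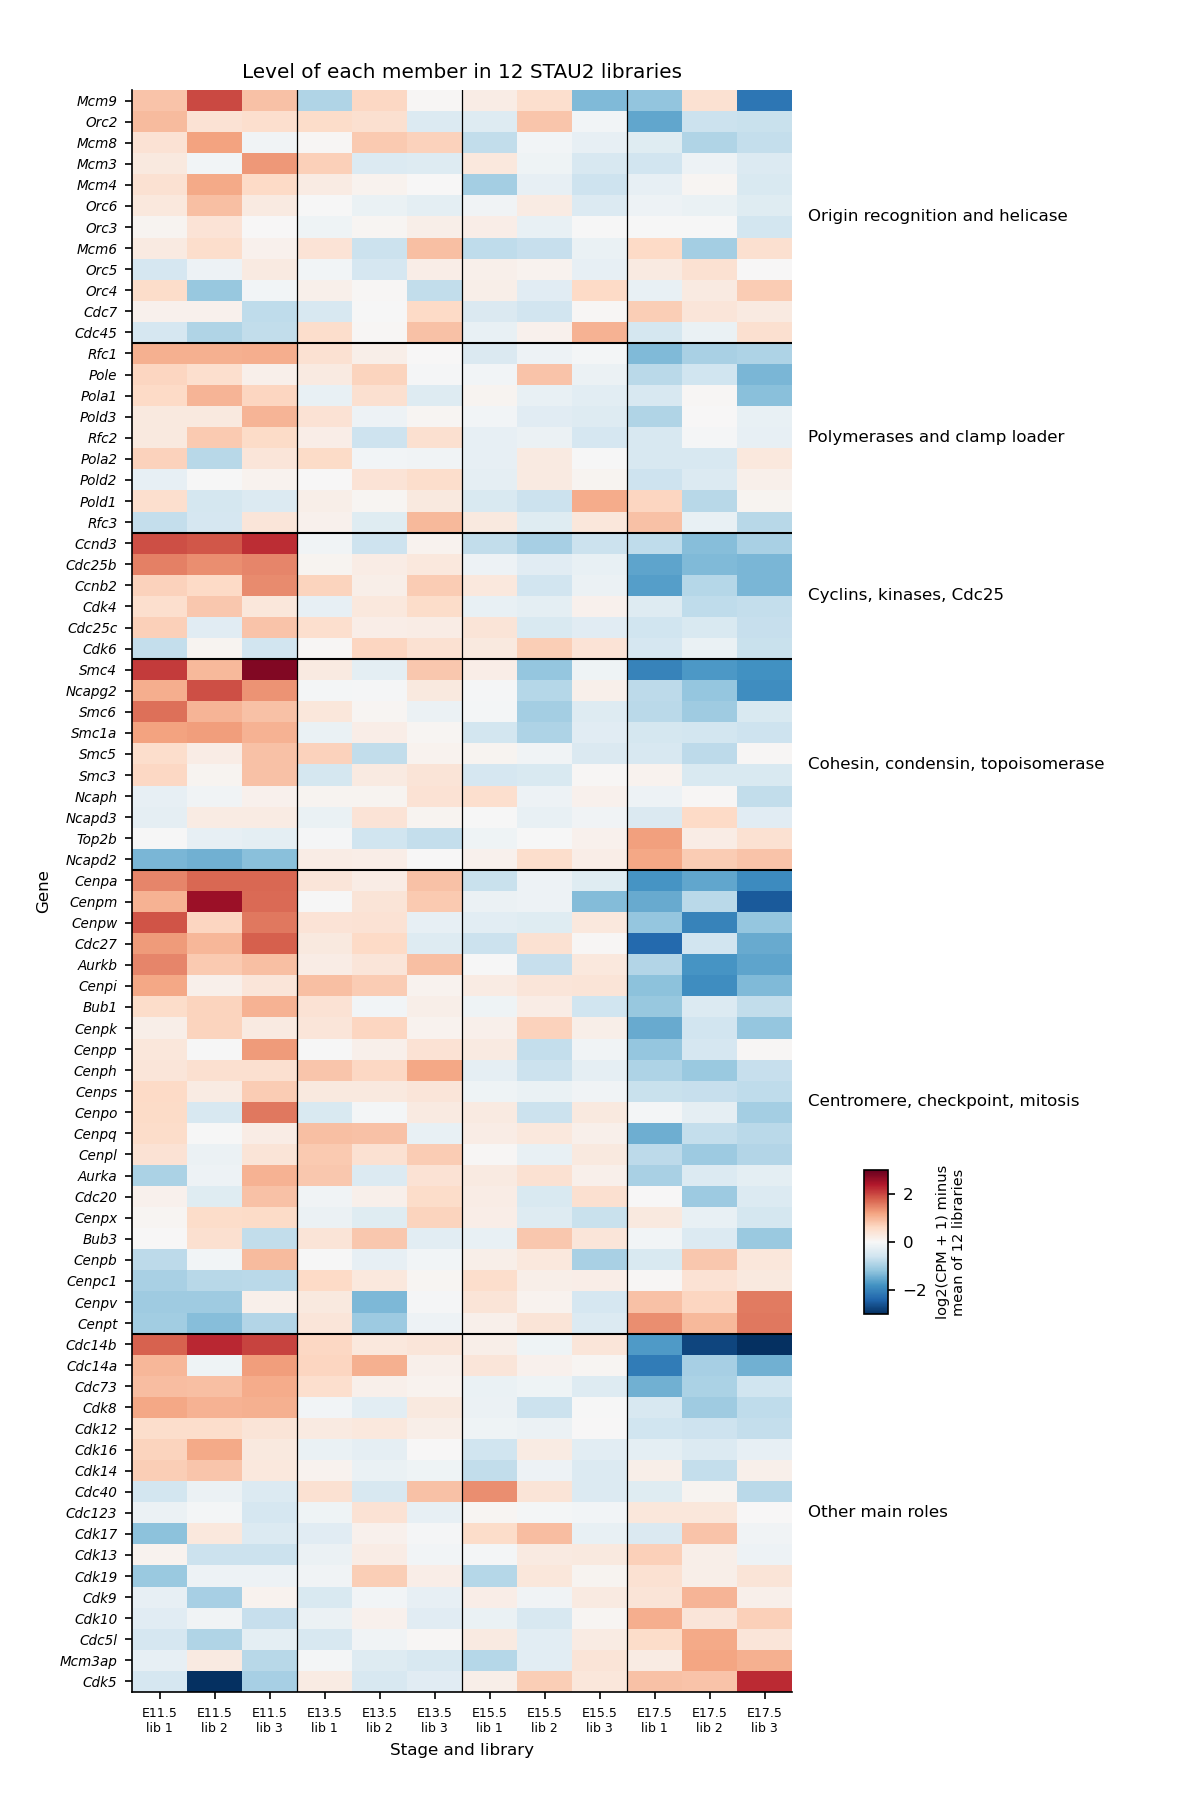
Heat map of the 76 members (rows, in 6 role groups separated by lines) in the 12 STAU2 libraries (columns, 3 at each of 4 stages). Colour is log2(CPM + 1) minus the gene's mean over the 12 libraries, red above and blue below. In 43 members the highest stage mean is at E11.5 and in 16 at E17.5.

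The steps between stages were unequal. At E13.5 against E11.5, 15 members fell and 3 rose, where 11.3% of all genes fell, 14% rose and 25.3% were called. The members' median log2 change was −0.18 and that of all genes 0.08. With scaling by the plain total the members' median turned to 0.17 and that of all genes was 0.435, with 7 members called lower and 10 higher. Relative to all genes, the members' median was lower by 0.26 under TMM and by 0.265 under the total. Of the 15 falls, Ccnd3, Cdc25b, Smc1a, Smc4, Cenpa, Cdc14b and Cdk8 were called under both scalings. At E15.5 against E13.5 Cenph alone fell and 0 members rose, where 0.549% of all genes fell, 0.196% rose and 0.745% were called. Without adjustment 8 of the 76 members and 751 of the 7651 genes had p under 0.05 in that step. DESeq2 called 2 members and 143 genes. At E17.5 against E15.5, 18 members fell and 2 rose, where 12.2% of all genes fell, 9.74% rose and 21.9% were called, with a median log2 change of −0.34 in members and −0.02 in all genes. The 20 calls of this step were 10 without E17.5 replicate 1 and 13 without E17.5 replicate 3. The test over all 4 stages called 44 members, where 54.9% of all genes were called.

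**Figure D2:**
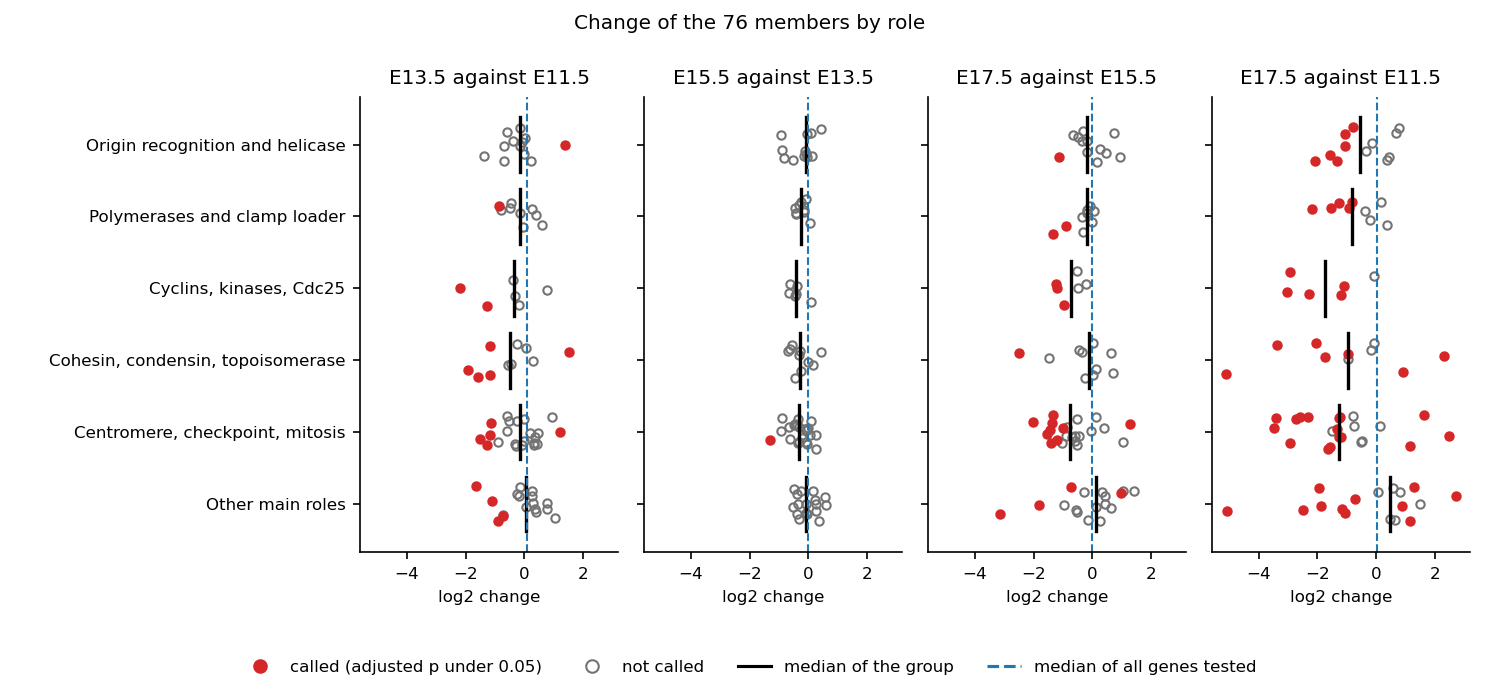
Log2 change of each of the 76 members in 4 stage comparisons, by role. The axis of values is the log2 change of the first stage named over the second, red points are called at an adjusted p under 0.05, bars are group medians and the dashed line is the median of all genes tested; 41 members are called lower at E17.5 against E11.5, and 1 at E15.5 against E13.5.

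At E17.5 against E11.5, 28.8% of all genes fell and 58.6% were called. Of the 12 genes grouped under origin recognition and the helicase, 6 fell and 0 rose. The median log2 change of the 12 was −0.56. With scaling by the plain total it was −0.26, with 3 called lower and 1 higher. Summed over the 12, libraries held 270.3 to 297 CPM at E17.5 and 401 to 478 CPM at E11.5. Orc2, a subunit of the complex that marks origins, had 97.5, 67.9 and 71.6 CPM in E11.5 cortex, 73.9, 70.4 and 37.4 in E13.5 cortex, 38.4, 89.8 and 47.1 in E15.5 cortex and 16.2, 31.8 and 31.4 in E17.5 cortex. All E17.5 libraries lay below all others. It fell by 1.58 ± 0.38 on the log2 scale at E17.5 against E11.5 (2.98-fold, adjusted p = 0.00168) and had a log2 change of −1.14 ± 0.37 at E17.5 against E15.5 (adjusted p = 0.0351). The second call was lost without E15.5 replicate 2 or E17.5 replicate 1 or 3, with an adjusted p of up to 0.196.

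Mcm4, a subunit of the replicative helicase whose peak is printed above, was scarce. It had 7.86, 9.92 and 6.59 CPM at E17.5 and 13.4, 22.2 and 14.8 at E11.5, without overlap. It fell by 1.05 ± 0.36 on the log2 scale (adjusted p = 0.0207). That call was lost with scaling by the plain total (adjusted p = 0.0879) and without E11.5 replicate 2 or E17.5 replicate 1 or 3 (up to 0.103). Orc6 (−0.78 ± 0.27), the helicase subunit Mcm3 (−1.05 ± 0.42) and the recombination factors Mcm8 (−1.34 ± 0.39) and Mcm9 (−2.10 ± 0.70) also fell on the log2 scale. Each of these calls was lost without at least 1 library: Orc6 without E11.5 replicate 2 or E17.5 replicate 3 (up to 0.105), Mcm3 without E11.5 replicate 3 or any E17.5 library (up to 0.31), Mcm8 without E11.5 replicate 2 (0.0654), and Mcm9 without E11.5 replicate 2 or E17.5 replicate 1 or 3 (up to 0.082). Orc6 and Mcm3 were also lost with scaling by the plain total. Only 26.2% of the single row of Mcm9 lies in an exon of the gene, and the row overlaps Asf1a on the other strand. Orc3, Orc4, Orc5, Mcm6, Cdc7 and Cdc45 did not pass in this comparison, with log2 changes from −0.34 (Orc3) to 0.79 (Cdc45).

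Cdc45, a cofactor of the helicase, was the 1 gene of the 12 called at E13.5 against E11.5, and it rose. It had 11.8, 8.12 and 15.2 CPM at E13.5 and 5.28, 3.71 and 4.32 at E11.5, a log2 change of 1.39 ± 0.49 (adjusted p = 0.0457). Leaving out any E11.5 library, E13.5 replicate 1 or 3 or E17.5 replicate 1 ended the call (up to 0.138), as did DESeq2's size factors (0.0543). Only 8.4% of its single row lies in an exon of the gene.

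Of the 9 genes of DNA synthesis, 5 fell and 0 rose at E17.5 against E11.5, where 28.8% of all genes fell and 58.6% were called. The median log2 change of the 9 was −0.84. Those that fell were Rfc1, Rfc2, Pola1, Pold3 and Pole. Summed over the 9, libraries held 167 to 183 CPM at E17.5 and 319.9 to 371 CPM at E11.5. Rfc1, the large subunit of the loader that opens the sliding clamp, had 93.7, 94.5 and 95.6 CPM in E11.5 cortex, 60.7, 49.9 and 44.8 in E13.5 cortex, 32.6, 40.03 and 42.3 in E15.5 cortex and 17.1, 21.9 and 22.8 in E17.5 cortex. No 2 stages overlapped. It fell by 2.20 ± 0.26 on the log2 scale at E17.5 against E11.5 (4.59-fold, adjusted p = 2.15e-06), and this call held without each of the 12 libraries. Smaller falls were called at E13.5 against E11.5 (−0.87 ± 0.25, adjusted p = 0.0154) and at E17.5 against E15.5 (−0.90 ± 0.25, adjusted p = 0.0171). The first of these was lost without E13.5 replicate 3 (0.0598) and with scaling by the plain total (0.121), and the second without E15.5 replicate 3 or E17.5 replicate 1 (up to 0.0897).

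Pola1, the catalytic subunit of the polymerase that starts each new strand, had 20.1, 29.5 and 11.4 CPM at E17.5 and 43.7, 59.3 and 45.05 at E11.5, without overlap. It fell by 1.28 ± 0.35 on the log2 scale (adjusted p = 0.00467), and the call held without each library. Pole, the catalytic subunit of the leading-strand polymerase, fell by 1.53 ± 0.44 in the same comparison (adjusted p = 0.00623). Of its 2 rows, 1 overlaps a small nucleolar RNA gene, Gm26277, on the same strand and held 37.1% of the counts. The call held with only rows free of other genes on the same strand. Pole was also called lower at E17.5 against E15.5, a call lost in that setting (adjusted p = 0.0924) and without E15.5 replicate 2 or E17.5 replicate 1 or 3 (up to 0.154). The falls of Pold3 (−0.92 ± 0.31) and Rfc2 (−0.84 ± 0.34) ended with scaling by the plain total, at adjusted p values of 0.0920 and 0.179. They also ended without E11.5 replicate 3 or E17.5 replicate 1, and that of Rfc2 without E11.5 replicate 2 or E17.5 replicate 3 too. Pola2, Pold1, Pold2 and Rfc3 passed in none of the 4 comparisons.

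The 6 cyclins, kinases and Cdc25 phosphatases had a median log2 change of −1.74 at E17.5 against E11.5, and 5 of them fell and 0 rose. Of all genes, 28.8% fell and 58.6% were called in that comparison, with a median log2 change of 0.04. Summed over the 6, libraries held 616 to 757 CPM at E17.5 and 1828 to 2066 CPM at E11.5. Ccnd3, a D-type cyclin, had 377, 356 and 455 CPM in E11.5 cortex, 90.6, 63.3 and 106 in E13.5 cortex, 58.4, 48.7 and 62.3 in E15.5 cortex and 56.9, 39.98 and 49.1 in E17.5 cortex. The E11.5 libraries stood above all the rest. At E13.5 against E11.5 it fell by 2.19 ± 0.26 on the log2 scale (4.57-fold, adjusted p = 1.69e-05), and at E17.5 against E11.5 it had a log2 change of −3.02 ± 0.27 (8.12-fold, adjusted p = 1.28e-07). Its single peak, at chr17:47599384-47599788 on the plus strand in the 3′ UTR, overlaps Bysl on the other strand.

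Cdc25b, a phosphatase that activates the mitotic kinase Cdk1, fell in both the early and the late step. It had 174, 161 and 169 CPM in E11.5 cortex, 63.6, 70.2 and 74.8 in E13.5 cortex, 54.6, 47.1 and 51.4 in E15.5 cortex and 19.5, 23.6 and 22.8 in E17.5 cortex. The stages did not overlap. It fell by 1.27 ± 0.23 on the log2 scale at E13.5 against E11.5 (adjusted p = 0.000631), had a log2 change of −1.22 ± 0.23 at E17.5 against E15.5 (adjusted p = 0.00157) and had a log2 change of −2.93 ± 0.24 over the interval (7.64-fold, adjusted p = 5.69e-08). None of these calls of Ccnd3 and Cdc25b was lost when any 1 library was left out or when counts were scaled by the total.

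The kinases that D-type cyclins activate were measured too. Cdk4, the most abundant member, had 619, 475 and 489.9 CPM at E17.5 and 1150.0, 1429 and 1018 at E11.5, and fell by 1.18 ± 0.27 on the log2 scale (adjusted p = 0.00122). One of its 2 rows overlaps Tspan31 on the other strand. Its relative Cdk6 averaged 28.6 ± 9.05 CPM in E11.5 cortex, 49.02 ± 10.1 in E13.5 cortex, 52.4 ± 8.77 in E15.5 cortex and 27.1 ± 4.61 in E17.5 cortex (SD, n = 3 each). Cdk6 fell at E17.5 against E15.5 (−0.95 ± 0.28, adjusted p = 0.024), a call lost without E15.5 replicate 2 or E17.5 replicate 1 or 3 (up to 0.0926), and its log2 change over the interval was −0.07 ± 0.30. The mitotic cyclin Ccnb2 averaged 13.1 ± 4.004 CPM at E17.5 and 64.1 ± 21.5 at E11.5 (SD, n = 3 each) and fell by 2.29 ± 0.35 on the log2 scale (adjusted p = 2.65e-05). Only 23.5% of the single row of Ccnb2 lies in an exon of the gene. Cdc25c, the relative of Cdc25b, fell by 1.11 ± 0.33 (adjusted p = 0.00759).

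**Figure D3:**
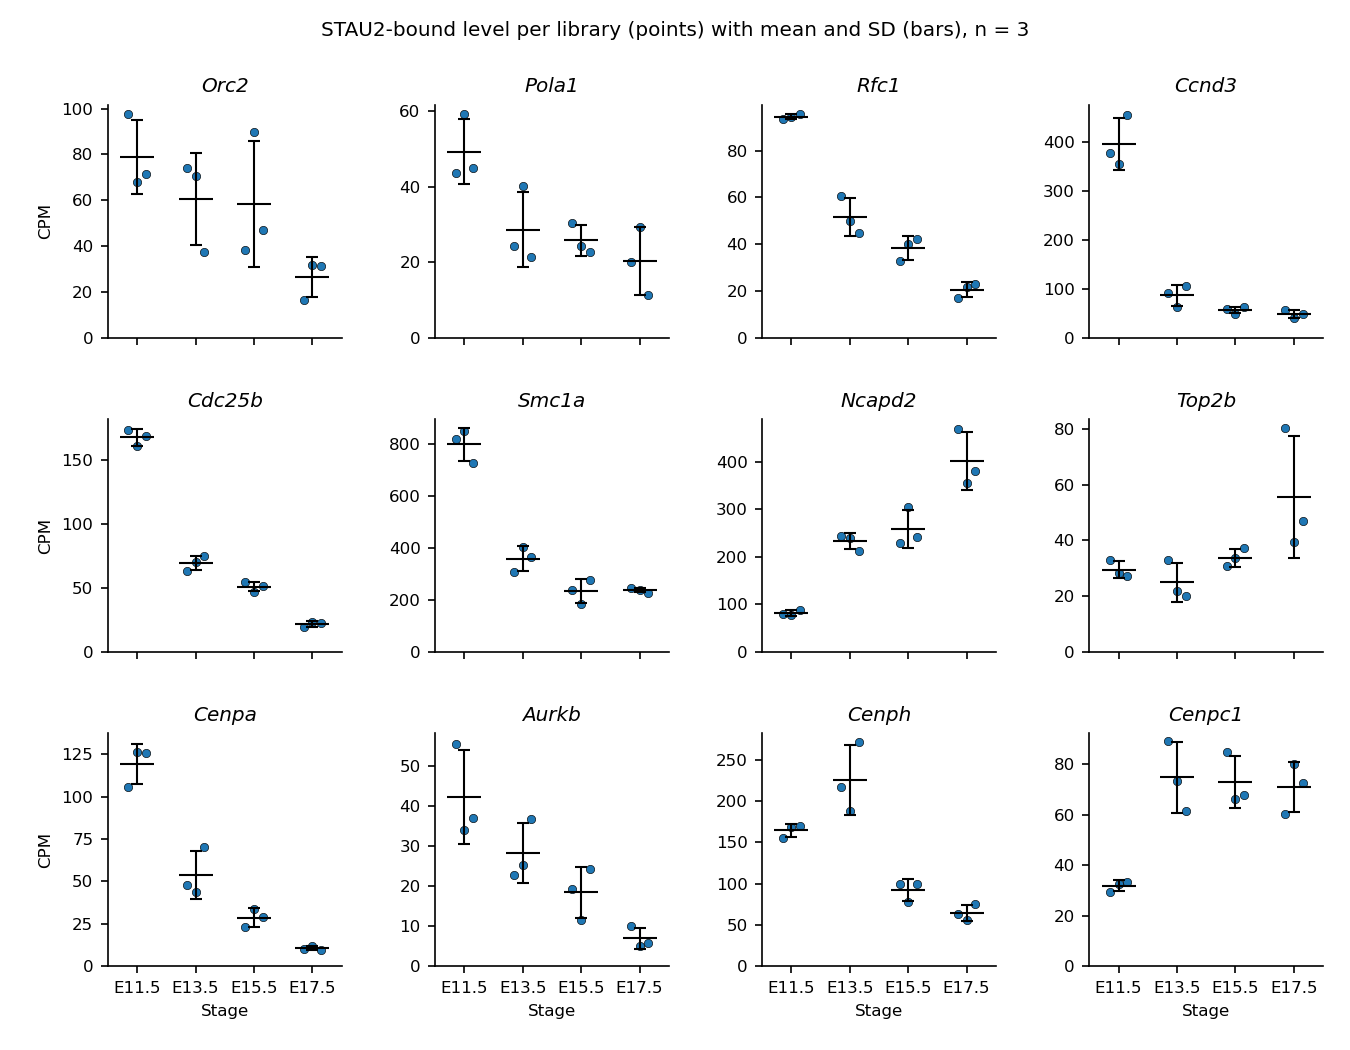
STAU2-bound level (vertical axis, CPM) of 12 members at 4 stages (horizontal axis); points are the 3 libraries of a stage, long bars the mean and whiskers the SD. All E11.5 libraries are the highest for Ccnd3, Cdc25b, Smc1a, Rfc1 and Cenpa, Cenph is highest at E13.5, and Ncapd2, Top2b and Cenpc1 are lower in all E11.5 libraries than in any of E17.5.

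The 10 genes of chromosome structure moved in both directions. At E17.5 against E11.5, 5 fell, namely Smc1a, Smc4, Smc5, Smc6 and Ncapg2, and 2 rose, Ncapd2 and Top2b. In that comparison 28.8% of all genes fell, 29.8% rose and 58.6% were called. Both rises and the fall of Smc5 were lost under at least 1 alternative, as given below. Summed over the 10, libraries held 764 to 919.9 CPM at E17.5 and 1138 to 1216 CPM at E11.5. These sums include an Ncapd2 peak that overlaps other genes on the same strand, with a mean of 309.8 CPM at E17.5 and 20.5 at E11.5. Smc1a had 819, 851 and 729 CPM in E11.5 cortex, 306, 405 and 366 in E13.5 cortex, 239, 185 and 278 in E15.5 cortex and 246, 239.6 and 229 in E17.5 cortex. The E11.5 libraries stood above all the rest. It fell by 1.16 ± 0.24 on the log2 scale at E13.5 against E11.5 (adjusted p = 0.00187) and had a log2 change of −1.75 ± 0.24 at E17.5 against E11.5 (adjusted p = 1.06e-05). Both calls held without each library. Smc3, its partner in cohesin, averaged 4.25 ± 1.25 CPM at E17.5 and 8.23 ± 2.49 at E11.5 (SD, n = 3 each) and was not called. Smc6, which acts with Smc5 in DNA repair, averaged 20.6 ± 4.67 CPM at E17.5 and 84.6 ± 25.9 at E11.5 (SD, n = 3 each) and fell by 2.04 ± 0.32 on the log2 scale (adjusted p = 4.49e-05).

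Smc4, a core subunit of condensin, had 0.542, 0.875 and 0.760 CPM at E17.5 and 25.5, 11.1 and 41.3 at E11.5, without overlap. Its log2 change of −5.10 ± 0.65 (adjusted p = 4.66e-06) was the largest fall of the 76 members in this comparison, on a single peak with few counts. Ncapg2, a subunit of condensin II, averaged 1.38 ± 0.833 CPM at E17.5 and 14.4 ± 4.77 at E11.5 (SD, n = 3 each), a log2 change of −3.36 ± 0.54 (adjusted p = 5.35e-05). The fall of Smc5 (−0.96 ± 0.35) was lost with scaling by the plain total (0.118) and without E11.5 replicate 3 or E17.5 replicate 1 or 2.

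Ncapd2, a subunit of condensin I, showed the opposite direction. It had 80.7, 76.6 and 87.6 CPM in E11.5 cortex, 245, 240.2 and 213 in E13.5 cortex, 229, 304 and 242 in E15.5 cortex and 470.2, 355 and 379.7 in E17.5 cortex. It rose by 1.51 ± 0.24 on the log2 scale at E13.5 against E11.5 (adjusted p = 0.000191) and had a log2 change of 2.30 ± 0.24 at E17.5 against E11.5 (4.92-fold, adjusted p = 6.05e-07). The gene has 4 peaks, whose levels differed in pattern. The peak at chr6:125186220-125186542 on the minus strand held 62.4% of the gene's counts and averaged 20.5 CPM in E11.5 cortex, 113 in E13.5 cortex, 158 in E15.5 cortex and 309.8 in E17.5 cortex. It overlaps Scarna10, a small Cajal body RNA, and Gm28967 on the same strand, and reads of these genes cannot be told apart there. The other 3 peaks averaged 33.6, 17.2 and 41.0 CPM at E17.5 and 20.2, 7.61 and 33.3 CPM at E11.5. Without the overlapping peak the log2 change at E17.5 against E11.5 was 0.59 (adjusted p = 0.0884), and at E13.5 against E11.5 it was 0.97 (adjusted p = 0.0211). This setting was chosen after seeing the data.

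**Figure D4:**
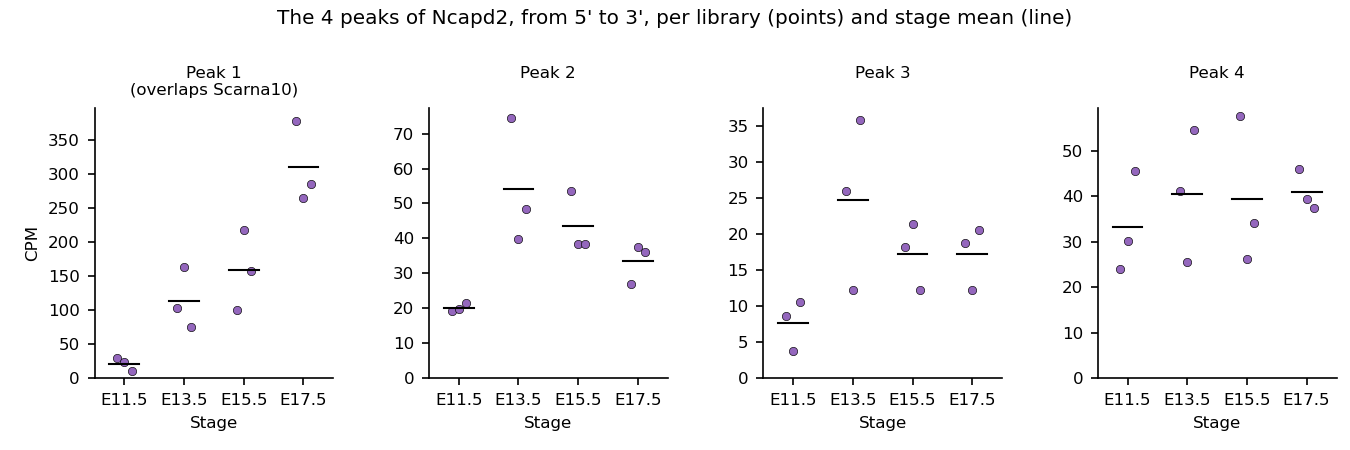
The 4 peaks of Ncapd2 in order from 5′ to 3′ along the RNA; the vertical axis is CPM, the horizontal axis the stage, points are libraries and lines stage means. The first peak averages 309.8 CPM at E17.5 and 20.5 at E11.5, while no library of the other peaks is above 74.6 CPM.

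Top2b, the topoisomerase II that non-dividing cells also use, had 80.5, 39.4 and 46.9 CPM at E17.5 and 33.1, 28.4 and 27.1 at E11.5, without overlap. It rose by 0.91 ± 0.31 on the log2 scale (adjusted p = 0.0185). The call was lost without E11.5 replicate 3 or E17.5 replicate 1 (up to 0.162) and with 3′ UTR rows only (0.0553).

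The 22 genes of the centromere, the spindle checkpoint and mitosis held 13 that fell and 3 that rose at E17.5 against E11.5, with a median log2 change of −1.27. In that comparison 28.8% of all genes fell, 29.8% rose and 58.6% were called. At E17.5 against E15.5, 8 of the 22 fell and 1 rose, where 12.2% of all genes fell and 9.74% rose. Summed over the 22, libraries held 956 to 1027 CPM at E17.5 and 1651 to 1996 CPM at E11.5. Cenpa, the histone that replaces H3 at centromeres, had 106, 127 and 126 CPM in E11.5 cortex, 48, 43.7 and 69.99 in E13.5 cortex, 22.96, 33.8 and 28.98 in E15.5 cortex and 10.3, 11.96 and 9.37 in E17.5 cortex. No stages overlapped. It fell by 3.5 ± 0.30 on the log2 scale over the interval (11.3-fold, adjusted p = 6.96e-08). Both the first step (−1.15 ± 0.27, adjusted p = 0.00449) and the last (−1.44 ± 0.28, adjusted p = 0.00184) were called. Each of these calls held without each library.

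Other Cenp genes fell in the last step. Cenpi averaged 3.85 ± 1.07 CPM at E17.5 and 15.6 ± 0.872 at E15.5 (SD, n = 3 each), with a log2 change of −2.01 ± 0.39 (adjusted p = 0.00159), while its log2 change at E13.5 against E11.5 was 0.00 ± 0.35. Cenpk averaged 5.68 ± 2.25 CPM at E17.5 and 16.4 ± 3.91 at E15.5 (SD, n = 3 each), with a log2 change of −1.53 ± 0.36 (adjusted p = 0.00631), and 0.00 ± 0.35 at E13.5 against E11.5. Cenpq, Cenpl and Cenpw also fell in the last step, with log2 changes of −1.20 ± 0.31, −1.0 ± 0.28 and −1.36 ± 0.36. The call of Cenpq was lost without E17.5 replicate 1 (0.0646), and those of Cenpl and Cenpw without E15.5 replicate 3 or E17.5 replicate 2 (up to 0.0665 and 0.064). The row that held 85.4% of the counts of Cenpw lies 21.1% in an exon of the gene. Cenpt, Cenpc1, Cenph and Cenpm, also of the inner kinetochore, were not called lower in this step: the log2 change of Cenpt was 1.30 ± 0.34 (adjusted p = 0.0124), and the others did not pass the test, with −0.04 ± 0.25, −0.52 ± 0.24 and −1.02 ± 0.44. Whether these genes differ from Cenpa in timing was not tested.

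Cenph was the 1 member called at E15.5 against E13.5. It had 99.9, 77.2 and 99.8 CPM at E15.5 and 217, 188 and 272 at E13.5, without overlap, and the E11.5 libraries lay between with 156, 169 and 170.3. It fell by 1.29 ± 0.24 on the log2 scale in that step (adjusted p = 0.0119). The call was lost without E13.5 replicate 3 or E15.5 replicate 1 or 2 (up to 0.0833) and with 3′ UTR rows only (0.192). In the same step 8 of the 9 markers of meninges and mesenchyme fell, where 0.549% of all genes fell. The summed level of the 9 markers was 79.8 to 99.2 CPM at E15.5 and 609.5 to 676 at E13.5. The part of this in the change of Cenph was not tested. Over the interval Cenph fell by 1.35 ± 0.24 (adjusted p = 0.000153).

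Cenpm, another subunit of the inner kinetochore, had 33.9, 55.4 and 16.2 CPM at E17.5 and 204, 589 and 321 at E11.5, and fell by 3.40 ± 0.47 on the log2 scale (adjusted p = 1.14e-05). Aurkb, the kinase that corrects faulty spindle attachments, had 10.02, 4.96 and 5.83 CPM at E17.5 and 55.7, 33.96 and 37.02 at E11.5, and fell by 2.60 ± 0.39 (adjusted p = 2.3e-05). Its fall at E17.5 against E15.5 (−1.41 ± 0.38, adjusted p = 0.0134) was lost without E15.5 replicate 3 or E17.5 replicate 2 or 3 (up to 0.0644). Bub1, a kinase of the spindle checkpoint, averaged 6.37 ± 1.78 CPM at E17.5 and 19.8 ± 3.79 at E11.5 (SD, n = 3 each) and fell by 1.63 ± 0.37 (adjusted p = 0.00119). The checkpoint protein Bub3, the anaphase activator Cdc20 and the spindle pole kinase Aurka passed in no comparison. Cdc27, a subunit of the anaphase-promoting complex, had 13, 46.7 and 23.6 CPM at E17.5 and 171, 139.5 and 242 at E11.5, and fell by 2.73 ± 0.43 on the log2 scale (adjusted p = 3.9e-05). Cenps fell by 1.27 ± 0.23 (adjusted p = 0.000177) and held that call without each library, while the fall of Cenpo (−1.27 ± 0.49) was lost with scaling by the plain total (0.0973) and without E11.5 replicate 3 or E17.5 replicate 2 or 3 (up to 0.317).

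Cenpc1, Cenpt and Cenpv rose. Cenpc1, a scaffold of the inner kinetochore, had 89.3, 73.5 and 61.5 CPM at E13.5 and 29.3, 32.7 and 33.3 at E11.5, and rose by 1.24 ± 0.26 on the log2 scale (adjusted p = 0.00218). It averaged 73.01 ± 10.3 CPM in E15.5 cortex and 71.03 ± 9.997 in E17.5 cortex (SD, n = 3 each), close to E13.5. Cenpt, a histone-fold protein that links the kinetochore to DNA, had 72.6, 53.99 and 81.8 CPM at E17.5 and 12.5, 10.5 and 14.2 at E11.5, and rose by 2.48 ± 0.38 (5.59-fold, adjusted p = 3.13e-05). Its rise at E17.5 against E15.5 (1.30 ± 0.34, adjusted p = 0.0124) was lost without E15.5 replicate 3 (0.0617). Cenpv averaged 249.6 ± 85.5 CPM at E17.5 and 80.5 ± 43.05 at E11.5 (SD, n = 3 each) and rose by 1.64 ± 0.42 on the log2 scale (adjusted p = 0.00302).

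The 17 members placed in the group of other main roles, which includes the phosphatases Cdc14a and Cdc14b, were split. At E17.5 against E11.5, 7 fell and 4 rose, and the median log2 change was 0.48. These are 11 of 17, where 58.6% of all genes were called. With scaling by the plain total the balance turned, with 6 called lower and 8 higher and a median of 0.78. Summed over the 17, libraries held 1528 to 1725 CPM at E17.5 and 1660.0 to 1861 CPM at E11.5. The phosphatase Cdc14b had 48.99, 69.2 and 58.6 CPM in E11.5 cortex, 21.4, 17.4 and 18.04 in E13.5 cortex, 15.6, 12.4 and 17.8 in E15.5 cortex and 3.52, 1.17 and 0.507 in E17.5 cortex. The E17.5 libraries lay below all others and the E11.5 libraries above them. It fell by 1.63 ± 0.37 on the log2 scale at E13.5 against E11.5 (adjusted p = 0.00387), had a log2 change of −3.13 ± 0.46 at E17.5 against E15.5 (adjusted p = 0.000183) and had a log2 change of −5.07 ± 0.47 over the interval (adjusted p = 1.53e-07). Its relative Cdc14a averaged 4.84 ± 2.15 CPM at E17.5 and 17.1 ± 2.06 at E15.5 (SD, n = 3 each), a log2 change of −1.81 ± 0.42 (adjusted p = 0.00568).

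Cdk8, a kinase of the Mediator complex, had 60.3, 51.6 and 79.3 CPM at E13.5 and 144, 133 and 135 at E11.5, and fell by 1.11 ± 0.27 on the log2 scale (adjusted p = 0.00578). Only 30.6% of 1 of its rows and 39.3% of the other lie in exons of the gene. A row called intron in the same gene, which was not part of the sum, held 40310 to 162353 counts per library. The 4 that rose at E17.5 against E11.5 were Cdk5, Cdk9, Cdk10 and Cdc5l. Cdk5, whose activators are found in neurons, had 67.7, 66.8 and 176 CPM at E17.5 and 25.5, 3.09 and 17.9 at E11.5, and rose by 2.72 ± 0.52 (6.58-fold, adjusted p = 0.000249). The rise of Cdk9 (0.87 ± 0.30, adjusted p = 0.0191) was lost without E11.5 replicate 2 or E17.5 replicate 2 (up to 0.123). Beside Cdc14a and Cdc14b, those that fell over the interval were Cdc73 (−1.96 ± 0.26), a subunit of the Paf1 transcription complex, Cdk12 (−1.17 ± 0.25), Cdk14 (−0.73 ± 0.28), Cdk16 (−1.06 ± 0.27) and Cdk8 (−1.86 ± 0.27). The call of Cdk14 was lost with scaling by the plain total (0.189) and without E11.5 replicate 1 or 2 or E17.5 replicate 2 (up to 0.147).

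Cell cycle genes that are not among the 76 members were read from 3 lists, and those that changed over the interval were mostly lower. At E17.5 against E11.5, 28.8% of all genes fell, 29.8% rose and 58.6% were called. In that comparison 14 of the 20 measured replication partners fell and 0 rose, with a median log2 change of −1.12. Among transcription factors and brakes of the cycle, 15 of 19 fell and 0 rose, with a median of −2.73. Of 38 mitotic partners, 33 fell and 1, the microtubule polymerase Ckap5, rose, with a median of −2.13. That list also holds Ccnb1, Bub1b, Cenpe, Cenpj and Ccnd2, which carry family symbols but were left out of the members, and all of them but Cenpj are among the 33. Foxm1, a factor that drives mitotic genes, averaged 40.8 ± 0.786 CPM at E17.5 and 452 ± 16.5 at E11.5 (SD, n = 3 each), a log2 change of −3.47 ± 0.27 (adjusted p = 2.7e-08). E2f1, a factor that drives replication genes, averaged 26.2 ± 4.40 CPM at E17.5 and 208 ± 16.8 at E11.5 (SD, n = 3 each), a log2 change of −2.99 ± 0.26 (adjusted p = 9.8e-08). Ccnd2, a D-type cyclin that is not a member, averaged 514 ± 173 CPM at E13.5 and 161 ± 10.4 at E11.5 (SD, n = 3 each) and rose by 1.67 ± 0.37 on the log2 scale (adjusted p = 0.00317). At E13.5 against E11.5 the median log2 changes of the replication, transcription and mitotic lists were −0.34, −0.65 and −0.31, and with scaling by the plain total 0.02, −0.30 and 0.05.

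Markers of cell types moved over the same stages, and unless another comparison is named their calls are those of E17.5 against E11.5. In that comparison 28.8% of all genes fell, 29.8% rose and 58.6% were called. The 10 measured of 15 neuron markers summed to 7301 to 8294 CPM per library at E17.5 and 580.0 to 598 at E11.5, and 9 rose. The 12 measured of 16 cortical progenitor markers summed to 2521 to 3094 CPM at E17.5 and 3096 to 4196 at E11.5, and 7 fell and 2 rose. Their median log2 change was −1.26. Much of the E17.5 sum was Fabp7, which rose, with a mean of 1419 CPM at E17.5 and 179 at E11.5. Lhx2, which fell, averaged 757 and 1818 CPM. At E13.5 against E11.5, 5 of the 12 rose and 1 fell, where 14% of all genes rose and 11.3% fell. The 7 measured of 10 intermediate progenitor markers summed to 389.6 to 442 CPM in E11.5 cortex, 1054 to 1259 in E13.5 cortex, 999 to 1263 in E15.5 cortex and 285 to 313 in E17.5 cortex. The 9 markers of meninges and mesenchyme summed to 477 to 622 CPM in E11.5 cortex, 609.5 to 676 in E13.5 cortex, 79.8 to 99.2 in E15.5 cortex and 8.36 to 11.1 in E17.5 cortex. The 4 measured of 8 endothelial markers were at 11.7 to 18.5 CPM at E17.5 and 33.3 to 64.8 at E11.5. The 3 measured of 7 microglial markers were at 14.2 to 27.4 CPM at E17.5 and 12.96 to 15.4 at E11.5, and the 2 measured of 10 red blood cell markers at 0 to 0.292 CPM at E17.5 and 46.9 to 53.8 at E11.5. No measured marker was at 0 in all 3 libraries of a stage. The part of these shifts in the changes of the members was not tested.

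**Figure D5:**
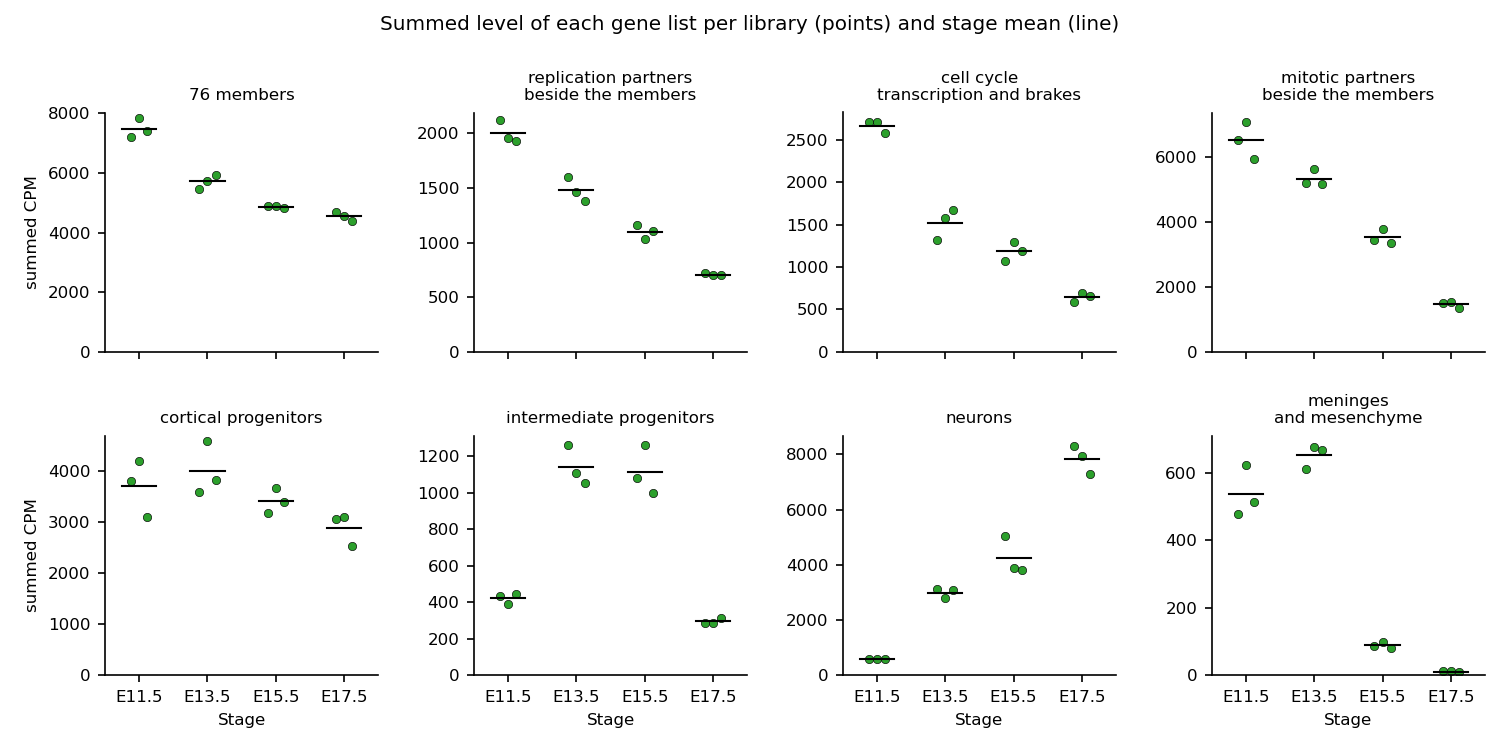
Summed level (vertical axis, CPM) of the 76 members, 3 lists of other cell cycle genes and 4 lists of cell type markers, at 4 stages (horizontal axis); points are libraries and lines stage means. The members and the 3 cell cycle lists are lower in each E17.5 library than in any of E11.5, and the neuron markers are higher, with 7301 to 8294 CPM at E17.5 and 580.0 to 598 at E11.5.

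Promoter sequence was available for 67 of the 76 members in RefSeq (GRCm38.p6), as windows of 250 bases before to 50 after the start. Many promoters of mitotic genes carry a CHR element (TTTGAA) and CCAAT boxes, and many of replication genes carry E2F sites. Both strands were searched, and for E2F the words TTTCCCGC, TTTGGCGC and TTTGGCGG were used. TTTGAA was in 25.4% of the members with a promoter, 13.8% of tested genes and 20.2% of all genes with a promoter. CCAAT was in 58.2% of members, 43.6% of tested genes and 41.1% of all genes with a promoter. An E2F word was in 25.4% of members, 5.12% of tested genes and 2.39% of all genes with a promoter, and in 0 of the 14 members with other main roles that had one. These are shares of letters, not of bound sites.

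Parts of 4 promoters of members that fell are printed because they hold these words in different mixes. Each is the 200 bases before the start, 5′ to 3′ in the sense of the gene, with the words in capitals. Pola1, at chrX:93632156-93632355 on the minus strand, holds an E2F word 138 bases and a CCAAT box 37 bases before the start, both on the other strand. Ccnb2, at chr9:70421555-70421754 (minus), holds CCAAT boxes 87, 54 and 21 bases before the start and TTTGAA 167 bases before it, with another TTTGAA 4 bases after the start, outside the printed part. Cenpa, at chr5:30666686-30666885 (plus), holds CCAAT boxes on the other strand 109 and 86 bases before the start, and TTTGAA lies 16 bases after it, outside the printed part. Cenpm, at chr15:82244337-82244536 (minus), holds CCAAT boxes 172 and 131 bases and an E2F word 71 bases before the start.
Pola1 promoter: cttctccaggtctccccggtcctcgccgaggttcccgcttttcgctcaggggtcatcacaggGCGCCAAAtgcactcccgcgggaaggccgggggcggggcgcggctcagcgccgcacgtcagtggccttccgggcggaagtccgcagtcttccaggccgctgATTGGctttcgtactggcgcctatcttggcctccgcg
Ccnb2 promoter: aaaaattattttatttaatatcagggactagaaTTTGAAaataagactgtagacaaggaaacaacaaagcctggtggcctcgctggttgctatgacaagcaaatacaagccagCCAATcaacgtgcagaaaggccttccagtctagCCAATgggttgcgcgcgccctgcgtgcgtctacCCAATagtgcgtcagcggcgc
Cenpa promoter: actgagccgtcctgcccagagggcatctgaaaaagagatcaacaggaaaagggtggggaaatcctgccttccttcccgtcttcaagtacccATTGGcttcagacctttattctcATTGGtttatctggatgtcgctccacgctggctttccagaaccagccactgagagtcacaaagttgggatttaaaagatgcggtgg
Cenpm promoter: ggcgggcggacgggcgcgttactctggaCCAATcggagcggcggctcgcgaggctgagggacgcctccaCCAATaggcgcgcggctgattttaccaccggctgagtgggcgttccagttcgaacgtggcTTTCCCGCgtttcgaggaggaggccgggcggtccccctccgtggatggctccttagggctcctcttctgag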

How the data were processed

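The authors deposited 1 table with whole-number counts for 12 libraries and a peak score for each of 18975 regions, with strand, location class and gene. HOMER 4.10 and the builds mm10 and GRCm38 are named in the submitters' processing notes; Ribo-Zero depletion and strand-marking ScriptSeq libraries come per the labels' protocols. What aligned and counted the reads is not given in the sources used here. Exonic rows with no gene (46.1% to 61.3% of a library's exonic counts) stayed out of library sizes and tests.

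Counts were summed per gene and fitted with edgeR 4.0.16 in R 4.3.3. Libraries were scaled by TMM, low genes removed by filterByExpr, and 4 stages with 3 libraries each entered 1 quasi-likelihood fit with no block, adjusted by Benjamini-Hochberg at 0.05. Its common BCV was 0.295. The steps were tested on simulated data. Labels do not state whether a replicate is a separate animal, so the p-values reflect spread among these libraries only, which may be technical.

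The members, the gene lists, the role groups and the tests were chosen with earlier results of these data known. Members described in full are the 1 of each family with the smallest p over 4 stages and the 6 with the smallest p in each comparison; others named are exceptions in their role group or were picked after their values were seen. Alternatives were total-count and DESeq2 scaling, DESeq2 1.42.0, no filter, intron rows included, 3′ UTR rows only, a replicate block and each library left out. Rows with a peak score at or above the median and rows free of other genes on the same strand were added after seeing the data. Overlaps and coding parts come from GENCODE vM21, and folding from ViennaRNA 2.7.2.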

Additional observations from a re-analysis of the deposited data

Results flagged for a closer look

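A row called intron in Cdk8, outside the rows analysed here, held 40310 counts in its lowest and 162353 counts in its highest library, which is a signal in data that the comparisons reported here leave out; rows called intron enter only the alternative that includes them. The summed rows of Cdk8 that were analysed averaged 37.7 ± 7.59 CPM at E17.5 and 137 ± 5.98 CPM at E11.5 (SD, n = 3 each). These rows lie 30.6% and 39.3% in exons of the gene.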

How the results depend on the processing

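No call of a member described in full changed direction under any alternative. Of the values recomputed for these members, which were picked by smallest p, 754 kept their side of the threshold and 23 lost it. Calls of other members were lost more often. Over all members, 8 of 18 calls held without each library at E13.5 against E11.5 and 0 of 1 at E15.5 against E13.5. The counts were 6 of 20 at E17.5 against E15.5 and 38 of 50 at E17.5 against E11.5. Leaving out each library in turn gave 12 to 18 called members at E13.5 against E11.5, 0 to 1 at E15.5 against E13.5, 10 to 20 at E17.5 against E15.5, 43 to 51 at E17.5 against E11.5 and 39 to 48 over the 4 stages, and 1393 to 1984, 13 to 58, 1168 to 1709, 4049 to 4561 and 3769 to 4225 called genes. The members' median log2 change ranged from −0.30 to −0.12, −0.32 to −0.22, −0.38 to −0.28 and −1.02 to −0.80 in the 4 comparisons.

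At E13.5 against E11.5 that median was 0.17 with scaling by the total, −0.30 with 3′ UTR rows only (11 members and 1166 genes called) and −0.39 with high peak scores (1164 genes). At E17.5 against E11.5 it was −0.65 with the total and −1.20 with 3′ UTR rows only (2947 genes called, and 2677 with high peak scores). At E15.5 against E13.5 DESeq2 called 2 members and 143 genes, 3′ UTR rows 0 members, and high peak scores 0 members and 30 genes. High peak scores gave 891 genes at E17.5 against E15.5, and 29 members and 2467 genes over the 4 stages, where 3′ UTR rows gave 2761 genes. These 2 settings test fewer genes; other causes were not tested.

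Replicate numbers were not taken as pairs, since not every pair correlated: same-numbered libraries of 2 stages correlated by −0.18 to 0.51 in their deviations from the stage mean, 11 of 18 pairs were over 0.1 (each pair of replicate 2 among them, from 0.12 to 0.51), and 4 of 12 libraries correlated best with their own number. With the replicate block 19, 1, 21 and 51 members were called in the 4 comparisons and 46 over the 4 stages. Counts in gene rows were the lowest at E11.5. Genes with few counts at a stage, such as Smc4 (standard error 0.65 at E17.5 against E11.5), carry wide errors. Smc4 held 8 counts over the E17.5 libraries and 138 over those of E11.5.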
